A study of Mus musculus with 10 samples.

Results

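The BMP and TGF-beta signalling core studied here comprises 10 genes, 7 encoding receptors (Bmpr1a, Bmpr1b, Acvr1, Tgfbr1, Bmpr2, Acvr2a and Acvr2b) and 3 encoding Smads (Smad1, Smad5 and Smad4). They were read from a map of N6-methyladenosine (m6A), a methylated form of adenosine in messenger RNA, in neural progenitor cells of the mouse hypothalamus. A peak, an interval enriched by an m6A antibody (IP) over input RNA, was given to a gene if they overlapped by at least 50% of the shorter of them. Where peaks lay on both strands, the strand with more IP reads was kept. This gave 18 of the 21195 peaks to the 10 genes, and all 10 had at least 1. The genes were chosen with earlier results of these data known, so this count is a description and no finding about them. By the same rule 44.2% of 21900 protein-coding genes had a peak. Of those at least as long as Smad5, the shortest of the 10 at 39.4 kb, 64.3% of 6097 did.

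The cells came from E14.5 embryos whose Mettl14 gene, encoding a subunit of the m6A methyltransferase, was floxed in every group. Mettl14 knockout cells had received lentivirus with EGFP and Cre, and control cells lentivirus with EGFP alone. All were grown with FGF2 and EGF (20 ng/ml each), and EGFP-positive cells were sorted after 72 hours. The labels list 4 m6A IP libraries and 1 input library from knockout cells, and 4 and 1 from control cells. The peak table has no column for a library or a genotype, so knockout and control cells could not be compared here. Each peak has a single value per column, so no spread between replicates can be given. How the authors' fold changes and adjusted p-values used the libraries is not stated in the sources used here. Over all peaks there were 72308582 IP and 26633390 input reads, a ratio of 2.71. Of the markers looked up, 8 of 10 for neural progenitors and 4 of 7 for hypothalamus had a peak. So had 3 of 5 for neurons, 2 of 4 for the oligodendrocyte lineage, and 1 each of 3 astrocyte, 4 microglial and 3 endothelial markers (Aqp4 for astrocytes, P2ry12 for microglia, with a peak that also overlaps Med12l, and Kdr for endothelium). Of the progenitor and hypothalamic markers Vim, Fabp7, Rax, Otp and Sim1 had no peak. Of the oligodendrocyte lineage markers Sox10 and Mbp had none. Depth was uneven within lists. At the strongest peak of a gene, input reads ran from 10 (Sox2) to 11286 (Slc1a3) among neural progenitor markers. They were 1096 (Pdgfra) and 43210 (Olig2) for the oligodendrocyte lineage. A peak needs both a transcript and the mark, so a gene without one may still be expressed.

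BMPs, activins and TGF-betas are secreted dimers that bring together type I and type II receptors, both serine/threonine kinases. The type II receptor phosphorylates the type I receptor, which in turn phosphorylates receptor-regulated Smads, Smad1 and Smad5 among those of the BMP branch. These join Smad4 and move to the nucleus as transcription factors. In the embryonic nervous system BMPs pattern the dorsal side, and in cultured neural progenitors they can favour astrocyte over neuronal fates.

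Enrichment by the antibody differed widely among the 18 peaks. The log2 enrichment, as the log2 fold change of IP over input is called below, ranged in the authors' deposited table from 1.28 for the 5' peak of Smad5 to 5.12 for Acvr2a. The median was 3.45 (11.0-fold) in the authors' deposited table, against 3.06 (8.34-fold) for all peaks. Of the 18, 12 exceeded 3.06 in the authors' deposited table. At or above a log2 enrichment of 4 (16-fold) in the authors' deposited table were 4 of 18 peaks (22.2%, against 19.8% of all peaks), in Acvr2a, Acvr1, Smad1 and Smad4. Without peaks over 10000 bases, a choice made after seeing the data, it was 2 of 14, and the share of all peaks under this limit was not computed. At or above 3 (8-fold) in the authors' deposited table were 13 of 18 (72.2%, against 52.1% of all peaks). With shifted log2 ratios of the reads, described below, the median of the 18 was 3.09, against 3.11 for all peaks. On that scale Bmpr1a, Bmpr2 and the 5' peak of Bmpr1b fell below 3, at 2.86, 2.92 and 2.86, and no peak rose to it. The excess over all peaks at 8-fold thus depends on the scale. Summed over the 18 peaks there were 71706 IP and 23374 input reads, a ratio of 3.07 (95% interval 3.02 to 3.11). Intervals beside a ratio are exact Clopper-Pearson intervals, which take the deposited reads as counts (whether they are sums or means over libraries is not stated) and cover counting error only, since the labels name no molecular identifiers and PCR copies may be counted. No ratio is corrected for library depth, so one under 1 is no sign of depletion. Smad4 supplied 30.5% of the IP reads, Acvr2a 18.4% and Acvr1 13.2%.

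**Figure D1:**
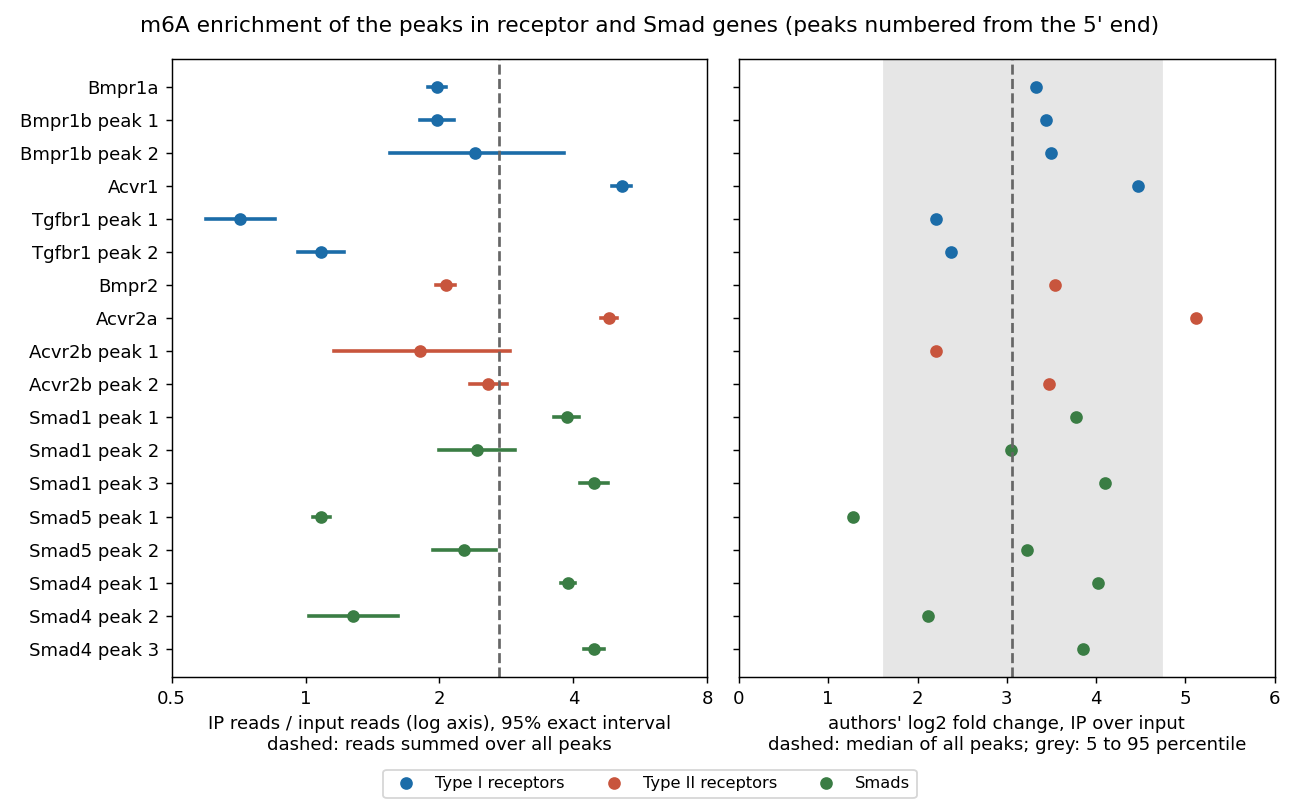
Each row is a peak in a receptor or Smad gene, numbered from the 5' end where a gene has several, with the ratio of IP to input reads and its 95% exact interval on a log axis at left and the authors' log2 fold change at right. The dashed lines mark all peaks (2.71 for the summed reads at left, the median of 3.06 at right) and the grey band their 5 to 95 percentiles (1.63 to 4.74). Acvr2a lies to the right of the band and the first Smad5 peak to the left of it.

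Among the type I receptors Acvr1 held the most enriched peak and Tgfbr1 the least. Acvr1, a receptor for BMPs and some activins, had a single peak on the minus strand of chromosome 2 (58446630 to 58458934; all positions are on GRCm38.p6), with 9432 IP and 1837 input reads. The ratio was 5.13 (95% interval 4.88 to 5.40), the highest of the 18, and the log2 enrichment in the authors' deposited table was 4.47, higher than in 91.2% of all peaks. The interval spans 12305 bases and ends close to the 3' end of the gene.

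Both peaks of Tgfbr1, the type I receptor for TGF-beta, were weak. The first (chromosome 4, plus strand, 47386341 to 47393297) had 220 IP and 308 input reads, and was the only 1 of the 18 (5.56%, against 11.3% of all peaks) with fewer IP than input reads. Its ratio was 0.714 (95% interval 0.598 to 0.852). The second (47407024 to 47410922) had 579 IP and 535 input reads, a ratio of 1.08 (95% interval 0.961 to 1.22). In the authors' deposited table the log2 enrichments were 2.20 and 2.37, higher than in 19.1% and 25.4% of all peaks. The first peak began 125 bases downstream of a start site inside the gene that RefSeq lists beside the one at its 5' end.

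Bmpr1a and Bmpr1b encode the main type I receptors for BMPs. Bmpr1a had a single peak near its 3' end (chromosome 14, minus strand, 34414059 to 34415824), with 4995 IP and 2529 input reads. The ratio was 1.98 (95% interval 1.88 to 2.07), with a log2 enrichment of 3.33 in the authors' deposited table. Bmpr1b, the longest of the 10 genes at 332.5 kb, had a peak at each end of its span on the minus strand of chromosome 3. The 5' peak, an interval of 125 bases (142169164 to 142169288), had 1508 IP and 765 input reads, a ratio of 1.97 (95% interval 1.81 to 2.15). The 3' peak, of 5005 bases (141840161 to 141845165), had 72 IP and 30 input reads, a ratio of 2.40 (95% interval 1.55 to 3.81). The log2 enrichments of 3.44 and 3.50 in the authors' deposited table differed little, and the intervals of the ratios overlapped. The ends of Bmpr1b differed in read density instead, with 12.1 IP and 6.12 input reads per base of the 5' interval, against 0.0144 and 0.00599 per base of the 3' interval. The 5' peak lay 187024 bases or more upstream of the start sites of the 3 Bmpr1b promoter windows in the RefSeq table used here.

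Among the type II receptors Acvr2a stood highest. Acvr2a and Acvr2b encode the type II receptors for activins, which also serve several BMPs. The single Acvr2a peak (chromosome 2, plus strand, 48896982 to 48900483) had 13189 IP and 2749 input reads, a ratio of 4.80 (95% interval 4.60 to 5.0). Its log2 enrichment of 5.12 in the authors' deposited table was higher than in 98.2% of all peaks. Bmpr2, the type II receptor specific to BMPs, had a single peak (chromosome 1, plus strand, 59863906 to 59870831) with 4630 IP and 2243 input reads. Its ratio was 2.06 (95% interval 1.96 to 2.17) and its log2 enrichment 3.54 in the authors' deposited table. The Bmpr2 interval did not overlap that of Acvr2a and overlapped those of Bmpr1a and of the 5' peak of Bmpr1b.

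Acvr2b had a pair of neighbouring peaks (chromosome 9, plus strand). The downstream one, of 100 bases (119434618 to 119434717), had 1597 IP and 620 input reads. The ratio was 2.58 (95% interval 2.35 to 2.83), with a log2 enrichment of 3.47 in the authors' deposited table. The upstream one, of 1050 bases (119433393 to 119434442), had 58 IP and 32 input reads, a ratio of 1.81 (95% interval 1.16 to 2.88). Its log2 enrichment in the authors' deposited table was 2.21, and its adjusted p of 3.45e-06 there was the largest of the 18. The intervals of the ratios overlapped. A further peak on the opposite strand (119440928 to 119444312), with 357 IP and 134 input reads, overlapped the 3' end of Acvr2b with 36.1% of the peak's own length and was not counted.

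The Smads carried 8 of the 18 peaks. Each of the 3 had a peak with its midpoint in the first 50% of the gene, a division chosen after the values were seen, as had 1 of the 7 receptor genes, Bmpr1b. In all, 5 of the 18 midpoints (27.8%) lay there, against 31.0% of midpoints in all protein-coding genes. The share of all genes with such a peak was not computed. Type I receptors carried 6 peaks in 4 genes and type II receptors 4 in 3, so the Smads had more peaks per gene to count. In Smad1 and Smad4 these midpoints are those of intervals of 43155 and 27815 bases, and where the reads lie within them is not known. Smad1, a substrate of the BMP type I receptors, had 3 peaks on the minus strand of chromosome 8. The 3' one (79339095 to 79341706) had 4010 IP and 903 input reads, a ratio of 4.44 (95% interval 4.13 to 4.78). The 5' one (79356364 to 79399518), an interval of 43155 bases, had 4522 IP and 1170 input reads, a ratio of 3.87 (95% interval 3.62 to 4.13). Between them a peak of 150 bases (79343532 to 79343681) had 359 IP and 148 input reads, a ratio of 2.43 (95% interval 2.00 to 2.96), below the intervals of the others. The log2 enrichments in the authors' deposited table were 4.10, 3.78 and 3.05, in the same order.

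Smad5, a close relative of Smad1, had both peak midpoints in the first 50% of the gene (chromosome 13, plus strand) and no peak near the 3' end. The first, of 250 bases (56703010 to 56703259), began at the annotated start of the gene and had 4168 IP and 3845 input reads, a ratio of 1.08 (95% interval 1.04 to 1.13). Its 3845 input reads were the most of any of the 18 peaks, and its log2 enrichment of 1.28 in the authors' deposited table was the lowest, above only 2.10% of all peaks. The second (56703699 to 56728600), of 24902 bases in a gene of 39369, had 505 IP and 222 input reads. The ratio was 2.27 (95% interval 1.94 to 2.68), with a log2 enrichment of 3.22 in the authors' deposited table. The table gives both Smad5 peaks to 2 gene identifiers, and how their reads divide between these was not tested. The other 16 peaks had 1 identifier each.

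Because peaks reached the RefSeq start sites of Smad1 and Smad5, their promoter windows (250 bases before to 50 after a start site, RefSeq, GRCm38.p6) are shown 5' to 3' along the gene, with the bases covered by the peak in capitals. The Smad1 window lies at chr8:79399379-79399678 on the minus strand and the first of 3 Smad5 windows at chr13:56702760-56703059 on the plus strand.
Smad1: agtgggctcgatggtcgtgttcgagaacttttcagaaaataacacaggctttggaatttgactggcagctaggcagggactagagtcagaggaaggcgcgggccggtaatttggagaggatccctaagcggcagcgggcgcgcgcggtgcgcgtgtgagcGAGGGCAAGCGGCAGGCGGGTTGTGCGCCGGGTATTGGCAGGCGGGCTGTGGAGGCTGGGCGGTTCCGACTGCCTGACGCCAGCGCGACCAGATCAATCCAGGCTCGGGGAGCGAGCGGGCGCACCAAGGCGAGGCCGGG
Smad5: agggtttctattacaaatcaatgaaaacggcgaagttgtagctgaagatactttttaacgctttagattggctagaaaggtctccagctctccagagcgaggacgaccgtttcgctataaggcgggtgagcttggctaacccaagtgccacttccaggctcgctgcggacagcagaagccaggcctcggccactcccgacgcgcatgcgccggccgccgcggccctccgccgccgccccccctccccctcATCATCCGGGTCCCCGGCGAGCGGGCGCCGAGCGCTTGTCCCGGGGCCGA

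The Smad1 peak covered 140 bases of its window and reached 90 bases upstream of the start site, and the Smad5 peak covered the 50 bases from the start site on. G and C made up 72.9% of the covered Smad1 bases and 78.0% of the covered Smad5 bases. GGACT, a form of the sequence in which m6A is often found, was searched for in the windows on both strands. On the transcribed strand the Smad1 window held 1 match, upstream of the peak, and the Smad5 window none, and neither peak-covered stretch held a match on either strand. Of all 32851 windows 26.1% held a match on the transcribed strand and 26.0% on the other, against 3 and 1 of the 14 windows found for 9 of the 10 genes. These windows hold few transcribed bases, and the sequence of the other parts of the peaks was not analysed here.

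Smad4, the partner of all receptor-regulated Smads, had 3 peaks on the minus strand of chromosome 18. The 5' one (73675854 to 73703668), of 27815 bases, had 13222 IP and 3397 input reads. The ratio was 3.89 (95% interval 3.75 to 4.04), with a log2 enrichment of 4.03 in the authors' deposited table. Near the 3' end a peak of 200 bases (73640084 to 73640283) had 8462 IP and 1902 input reads. The ratio was 4.45 (95% interval 4.23 to 4.68), with a log2 enrichment of 3.85 in the authors' deposited table. At 42.3 IP and 9.51 input reads per base it was the densest of the 18 in IP reads. Just upstream a peak of 75 bases (73640334 to 73640408) had 178 IP and 139 input reads. The ratio was 1.28 (95% interval 1.02 to 1.61), with a log2 enrichment of 2.11 in the authors' deposited table. The intervals of these neighbours did not overlap.

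Most of the 18 midpoints lay in the last 10% of the gene span, 10 of them (55.6%). The share was 36.9% of 19334 peak midpoints in protein-coding genes of any length. The 10 of the 18 belonged to 8 genes, the exceptions being Acvr2b and Smad5. The Acvr2b midpoints lay at 79.7% and 81.6% of the span. Counted in bases the order turned round, with 3 of 18 midpoints (16.7%) within 5000 bases of the gene end, against 49.2% of all. Those 3 were in Smad1, Bmpr1a and Acvr2a, at 2006, 3881 and 4532 bases from the end. In Bmpr2 the distance was 10713 bases. Neither difference from the share of all was tested or matched for gene length. All 10 genes span at least 39.4 kb, a length that 6097 of 21900 protein-coding genes reach. The first 10% of the span held 2 midpoints (11.1%, against 9.35% of all), 360.0 bases from the 5' end in Bmpr1b and 125.5 in Smad5. Gene spans include introns, and where the exons lie was not analysed here. Over 10000 bases were 4 of the 18 peaks (22.2%, against 13.0% of all), in Acvr1 and at the 5' ends of Smad1, Smad5 and Smad4.

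**Figure D2:**
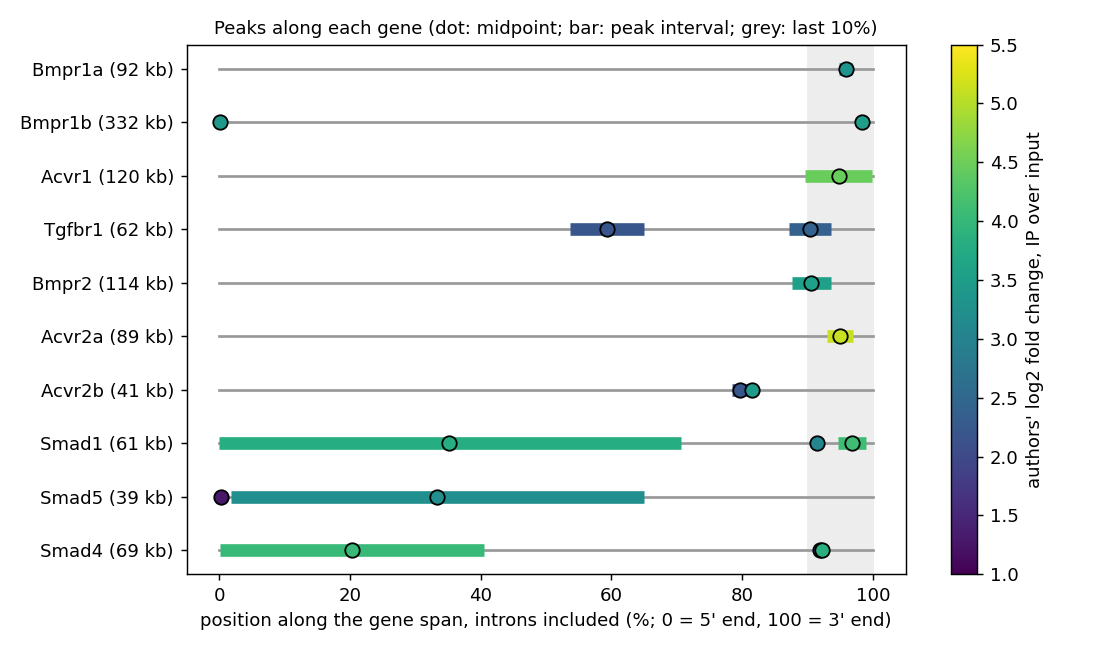
Each line is a gene drawn from its 5' end (0%) to its 3' end (100%), with its length in kb, and each bar a peak interval with its midpoint as a dot, coloured by the authors' log2 fold change. Of the 18 midpoints 10 lie in the grey last 10%, and the long bars of Smad1, Smad5 and Smad4 start at or near the 5' end. The neighbouring dots of Acvr2b and of the 3' end of Smad4 overlap at this scale.

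The deposited enrichment and the deposited reads ordered some of these peaks differently. Over all peaks the log2 enrichment in the authors' deposited table was above the log2 of IP over input reads (pseudocount 0.5), with a median excess of 1.88 and an SD across peaks of 0.527. For the 18 the median excess was 2.08, with a range of 1.17 for the first Smad5 peak to 2.86 for Acvr2a. The second Tgfbr1 peak and the first Smad5 peak had ratios of reads that are equal to 3 digits, 1.08, and log2 enrichments of 2.37 and 1.28 in the authors' deposited table. Acvr2a stood above Acvr1 by log2 enrichment in the authors' deposited table (5.12 and 4.47) and below it by ratio of reads (4.80 and 5.13). When the log2 ratios of the reads were shifted by the median excess of 1.88, the median of the 18 was 3.09, against 3.11 for all peaks. At or above 4 on this scale were again 4 of the 18 peaks, against 18.2% of all, and 3 of them also passed in the authors' deposited table. How the deposited values were normalized is not stated in the sources used here.

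**Figure D3:**
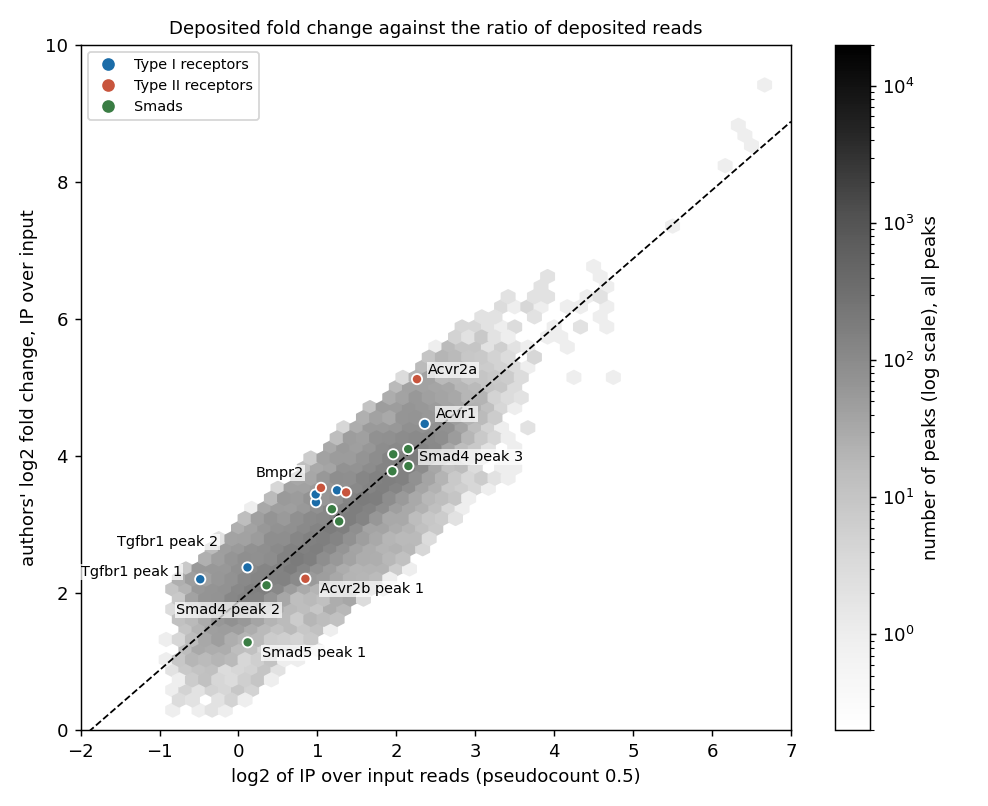
The authors' log2 fold change is plotted against the log2 ratio of IP to input reads (pseudocount 0.5) for the peaks in receptor and Smad genes (coloured points) and for all peaks (grey hexagons, darker for more peaks). The dashed line lies 1.88 above equality, the median excess over all peaks. Acvr2a (2.86) and the first Tgfbr1 peak (2.69) lie above it and the first Smad5 peak (1.17) below it.

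Of 81 other pathway genes 48 had a peak (59.3%, against 44.2% of all protein-coding genes). The 81 were not matched for gene length. Of protein-coding genes at least as long as Smad5, 64.3% of 6097 had a peak. The strongest peak per gene had a median log2 enrichment in the authors' deposited table of 3.52 in the 10 receptor and Smad genes and 3.48 in the 48, against 3.51 in all genes with a peak. The kept strand could be compared with the gene's strand for 34 of the 48. It differed for Inhba, Ltbp3 and Tgif2, and whether these peaks belong to other transcripts was not tested. Without these 3 genes 45 of 81 (55.6%) had a peak.

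Of the other receptors, 2 of 5 had a peak. Acvr1b, a type I receptor for activins, had 4468 IP and 911 input reads and a log2 enrichment of 4.53 in the authors' deposited table. Tgfbr2, the type II receptor for TGF-beta, had 2.97 in the authors' deposited table, and Acvr1c, Acvrl1 and Amhr2 had no peak. Of the other Smads, Smad2 and Smad3, substrates of the activin and TGF-beta receptors, had 4.37 and 3.74 in the authors' deposited table. Smad9, the further BMP Smad, had 409 IP and 376 input reads and 1.89 in the authors' deposited table. The inhibitory Smads, Smad6 and Smad7, had no peak. Co-receptors had a peak in 4 of 6 genes (66.7%, against 44.2%). Their log2 enrichments in the authors' deposited table were 4.69 for Rgmb, 4.20 for Rgma, 4.09 for Neo1 and 1.92 for Eng. Rgma and Rgmb bind BMPs, and Neo1 is a receptor for both. Tgfbr3 and Hjv had no peak.

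Ligands had a peak in 11 of 28 genes (39.3%, against 44.2% of all protein-coding genes), with Inhba, whose kept peaks lay on the opposite strand, among the 11. No difference between the lists was tested. Bmp3 (14378 IP and 2208 input reads), Gdf9 (549 and 78) and Tgfb2 (10741 and 2333) were the most enriched, at log2 enrichments of 4.74, 4.57 and 4.40 in the authors' deposited table. Inhba followed at 3.87 in the authors' deposited table. A peak was found in 9 of 16 extracellular regulators (56.2%, against 44.2%), with Ltbp3, whose kept peak lay on the opposite strand, among the 9. Their median strongest log2 enrichment of 2.80 in the authors' deposited table was the lowest of the 6. The highest with at least 20 input reads were Bambi, a decoy receptor, at 3.48, then Sostdc1 at 3.13, Fstl1 at 2.84 and Ltbp1 at 2.83 in the authors' deposited table. A further Ltbp1 peak, at 4.32 in the authors' deposited table, rested on 15 input reads. Among those without a peak were the BMP antagonists Nog, Chrd and Chrdl1. Of the intracellular regulators 19 of 21 had a peak (90.5%, against 44.2% of all protein-coding genes), all but Foxh1 and Fkbp1a. The lists were not matched for gene length. Among the 19 was Tgif2, whose kept peaks lay on the opposite strand. The 19 were led by Map3k7, a kinase of the Smad-independent branch, at 4.58 in the authors' deposited table. Then came Usp9x at 4.46, Trim33 at 4.43 and Hipk2 at 4.43 in the authors' deposited table. Usp9x is a deubiquitinase and Trim33 a ubiquitin ligase, both reported to act on Smad4.

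**Figure D4:**
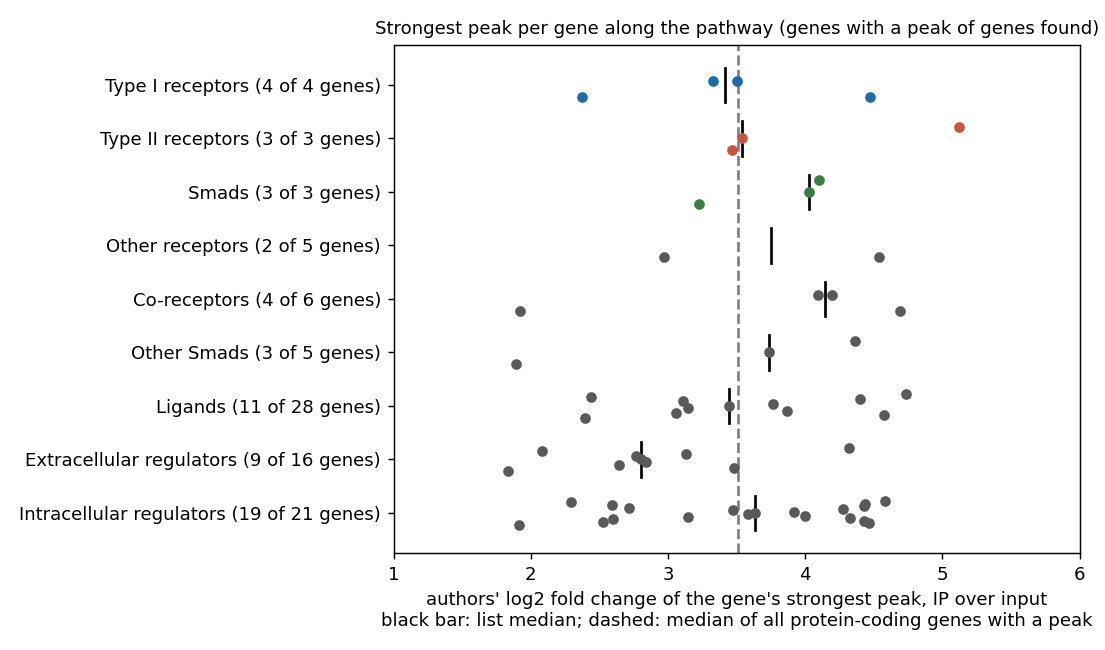
Each point is a gene with a peak, placed by the authors' log2 fold change of its strongest peak, with the pathway lists as rows and the number of genes with a peak beside each name. Black bars are list medians, and the dashed line is the median of all protein-coding genes with a peak (3.51). Points of every list but the type II receptors and the 3 Smads lie on both sides of 3 on this scale, and the extracellular regulators have the lowest median, 2.80.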

How the data were processed

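m6A immunoprecipitation and input libraries of mouse hypothalamic neural progenitor cells were sequenced after fragmentation of polyadenylated RNA. Per the submitters' processing notes, bcl2fastq 2.17.1.14, Trimmomatic 0.32, STAR 2.5.2a and the builds GRCm38.p6 and GRCh38.p13 were used. The peak caller, the counting of reads that match several genes, and the pooling of libraries are not stated in the sources used here. Deposited counts are whole reads per peak, 1 IP and 1 input column per the file headers, with 0 columns of single libraries, and may be sums or rounded means. The deposited log2 fold change, p-values and adjusted p-values are the authors' own. The deposited score was -log2 of the adjusted p for each of 21195 peaks (tolerance 1e-06), and the peak list held the same intervals, strands and scores as the table.

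Peaks were matched to RefSeq gene spans (GRCm38.p6) with pandas 2.3.3, after the matching had been tested on simulated peaks, and intervals were computed with scipy 1.17.1. No set or group test was run. All 10 genes are named with every peak. From each pathway list, up to 4 genes with the highest log2 fold change in a peak of at least 20 input reads are named. The gene list, the pathway lists and the thresholds were chosen with earlier results of these data known. Of 82 listed pathway genes 81 were found in the gene table. The planned test of knockout against control was not run.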

Additional observations from a re-analysis of the deposited data

How the results depend on the processing

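All 10 genes kept a peak under any overlap of 1 base, with 90% of the peak inside the gene, with both strands, at an adjusted p of at most 1e-10 and with at least 20 input reads. Without peaks over 10000 bases 9 did (Acvr1 lost its only one), and without peaks of several gene identifiers 9 did (without Smad5). The number of peaks at or above 16-fold was 2 in place of 4 without peaks over 10000 bases, which removes Acvr1 and the 5' peak of Smad4 (a choice made after seeing the data, as was leaving out peaks with several gene identifiers). The share of all peaks at or above 16-fold without those over 10000 bases was not computed. At a threshold of 8-fold in the authors' deposited table the number was 13 (72.2%, against 52.1% of all peaks). The median log2 fold change of 3.45 became 3.09 and 3.07 with shifted log2 ratios of the reads (pseudocounts 0.5 and 5), against 3.11 and 3.12 for all peaks, and the cause was not tested. Counting midpoints within 5000 bases of the gene end, in place of the last 10% of the span, gave 3 in place of 10. The other 54 of 59 alternatives, 18 of them a pseudocount on the ratio of reads of a single peak, moved a count by no more than 1.5 times, the median by less than 0.1 or a ratio by less than its interval. Depth limits the 3' peak of Bmpr1b (30 input reads) and the upstream peak of Acvr2b (32) most. No paired analysis was possible because the table has no column for a library or a genotype, and the planned fits by genotype were not run.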
